A study of Mus musculus with 45 samples.

Results

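The genes described here are 10 components and products of the NF-κB pathway, chosen by name: the subunit genes Nfkb1, Nfkb2 and Relb, the inhibitor genes Nfkbia, Nfkbiz and Bcl3, the feedback genes Tnfaip3, Tnip3 and Traf1, and the target gene Icam1. Of the 10 genes, 9 were measured, each by 1 probe set, among 19752 genes on 45 microarrays. Nfkb1 was not analysed here. The arrays hold RNA of macrophages sorted from muscle of male C57Bl6 mice. Cells were taken uninjured (day 0) or 1, 4 or 7 days after cardiotoxin, a snake venom toxin that kills muscle fibres and is followed by regeneration. All were sorted as Ly6g- CD11b+ F4-80+ cells and split into MHCII+ and MHCII- subsets, with 24 and 21 arrays.

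The mice either carried Foxp3.DTR, a diphtheria toxin receptor driven by the gene that defines regulatory T cells, or lacked it (DTR-), so that diphtheria toxin (DT) removes regulatory T cells from carriers. The 24 h DT set of day 7 held 2 DTR+ and 4 DTR- arrays of MHCII+ cells, and 3 of each genotype of MHCII- cells, from mice aged 8 weeks. The 8 h DT set of day 7 held 3 DTR+ and 3 DTR- arrays of MHCII+ cells, and 3 DTR+ and 4 DTR- arrays of MHCII- cells, from mice aged 12 weeks. A further day 7 set had no DT time in its titles and held MHCII+ cells only, with 2 arrays of each genotype from mice aged 10 weeks. Day 1 was sampled in both genotypes and subsets with a 24 h DT title, at 2 arrays a group and 8 weeks of age. Day 0 (10 weeks) and day 4 (8 weeks) held DTR- mice only, with 2 arrays of each subset. A SiglecF- gate, which removes eosinophils, was stated for the 8 h set, day 1 and day 4 only. The labels do not say whether DTR- mice received toxin, from when the 8 h and 24 h are counted, or whether arrays of a group came from separate animals. The p-values below therefore measure the spread between these arrays, which may be technical.

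NF-κB proteins are dimeric transcription factors that inhibitors of the IκB family hold in the cytoplasm of resting cells. Signals from Toll-like receptors or from receptors for TNF and interleukin-1 activate kinases that mark the inhibitor for destruction, and the freed dimer enters the nucleus. Many of the genes it switches on encode its own brakes: IκBα (Nfkbia) recaptures the dimer, A20 (Tnfaip3) edits ubiquitin chains on the upstream adaptors, and ABIN-3 (Tnip3) belongs to a family of A20-binding proteins. Macrophages use this circuit to start and stop inflammatory gene expression, and the messages of the feedback genes follow the activity of the pathway within a short time. Another arm of the pathway joins p100, the product of Nfkb2, to RelB.

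Promoter sequence, the 250 bases before the annotated start, was held for 7 of the 10 genes, in 10 windows, from RefSeq on the mouse build GRCm38.p6. A search on both strands used the κB consensus GGGRNNYYCC, a 10-base pattern for elements that NF-κB dimers bind. R is A or G, Y is C or T, and N is any base. The pattern was found in 6 of these windows, which belong to 4 genes (Nfkbia, Tnfaip3, Nfkb2 and Tnip3). Of all 32851 promoter windows in the table, 7.251% held a match. Sequences are shown for the genes whose values the results turn on most, 5′ to 3′ on the gene's own strand, with κB matches in capitals. Tnip3 and Traf1 are the genes with the widest range across groups, and Nfkbia and Tnfaip3 are the core feedback genes. The Tnip3 window is chr6:65590148-65590397 on the plus strand, and its match is the same element read on either strand.
Tnip3: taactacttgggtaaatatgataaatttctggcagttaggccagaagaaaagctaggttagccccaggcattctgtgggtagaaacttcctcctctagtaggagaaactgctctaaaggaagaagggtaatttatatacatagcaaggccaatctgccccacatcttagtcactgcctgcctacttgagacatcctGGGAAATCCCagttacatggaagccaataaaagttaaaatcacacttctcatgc
The Traf1 window, chr2:34961773-34962022 on the minus strand, held no match, which says only that these letters are not in this window.
Traf1: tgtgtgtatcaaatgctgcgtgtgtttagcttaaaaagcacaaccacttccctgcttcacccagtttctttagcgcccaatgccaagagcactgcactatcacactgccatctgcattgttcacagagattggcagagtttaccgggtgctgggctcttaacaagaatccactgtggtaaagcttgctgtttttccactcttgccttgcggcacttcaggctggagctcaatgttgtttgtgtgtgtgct
The Nfkbia window is chr12:55492648-55492897 on the minus strand.
Nfkbia: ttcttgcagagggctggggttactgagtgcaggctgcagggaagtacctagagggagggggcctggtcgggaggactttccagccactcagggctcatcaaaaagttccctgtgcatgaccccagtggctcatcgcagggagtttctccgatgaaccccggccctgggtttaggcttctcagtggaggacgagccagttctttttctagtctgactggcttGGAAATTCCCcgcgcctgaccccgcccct
The first Tnfaip3 window is chr10:19015411-19015660 on the minus strand and held 2 matches.
Tnfaip3: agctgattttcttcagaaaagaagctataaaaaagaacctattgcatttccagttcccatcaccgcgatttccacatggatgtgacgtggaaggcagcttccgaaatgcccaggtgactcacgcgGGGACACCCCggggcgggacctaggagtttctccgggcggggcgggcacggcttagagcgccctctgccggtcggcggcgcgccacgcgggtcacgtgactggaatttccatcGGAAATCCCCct
These are matches to a pattern and not measurements of binding. No match was found in the windows of Bcl3 and Icam1, where a site that departs from the pattern would be missed.

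The macrophage label was borne out in every array: the mean log2 intensity of 8 macrophage genes (among them Adgre1, which encodes F4/80, and Csf1r) was 12.22 to 12.76. H2-Ab1, an MHC class II chain, separated the subsets as titled, with 13.67 to 14.01 in MHCII+ arrays and 7.81 to 12.45 in MHCII- arrays. The sorted cells are mixtures in other respects. The mean of 7 dendritic cell genes was 7.51 to 8.90 in MHCII+ arrays and 6.61 to 7.49 in MHCII- arrays, with no overlap. The mean of 10 neutrophil genes reached 10.36 in the first day 0 MHCII- array and 7.40 in the second, against at most 7.50 in all MHCII+ arrays. The mean of 7 T cell genes was 9.74 in 1 array of the 8 h DTR+ MHCII+ group. Where a result touches these arrays or lists, their values stand beside it. In sorted but mixed cells, fewer cells of a type and less RNA per cell cannot be told apart.

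All 9 measured genes passed the filter on low values, a group mean of at least log2 7.57. Over the 18 groups the feedback genes Tnip3 and Traf1 varied most and the subunit genes least. Group means of Tnip3 spanned 3.75 log2 units, those of Traf1 2.65 and those of Icam1 1.62. The span was 1.23 for Tnfaip3, 1.21 for Nfkbiz and 1.18 for Bcl3, and 0.77 for Nfkbia. It was 0.45 for Nfkb2 and 0.43 for Relb. The highest group was day 0 DTR- MHCII+, the uninjured muscle, for 7 of the 9 genes. Tnfaip3 and Nfkbiz instead were highest in the day 7 DTR- MHCII+ group without a DT time, at 12.24 and 12.14. The lowest group of Tnfaip3, Nfkbia and Nfkbiz was the 8 h DTR- MHCII- group.

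The subunit genes moved little. Nfkb2, which encodes the p100 precursor of p52, ranged from 9.41 to 10.43 over the 45 arrays, with a median of 10.03. Relb, which encodes the partner of p52, ranged from 7.92 to 9.09, with a median of 8.65. When the 18 groups were ordered by mean, all 17 pairs of neighbouring groups overlapped for both genes. Neither gene passed the test in any of the 29 comparisons. The 3 arrays of lowest estimated quality weight (0.0810 to 0.188, the next being 0.224) were also the 3 lowest arrays of all 45 for both genes, at 7.98, 7.92 and 7.96 for Relb and 9.48, 9.54 and 9.41 for Nfkb2. They are replicate 3 of 24 h DTR+ MHCII-, replicate 1 of 8 h DTR+ MHCII+, the array with raised T cell genes, and replicate 3 of 24 h DTR- MHCII+.

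**Figure D1:**
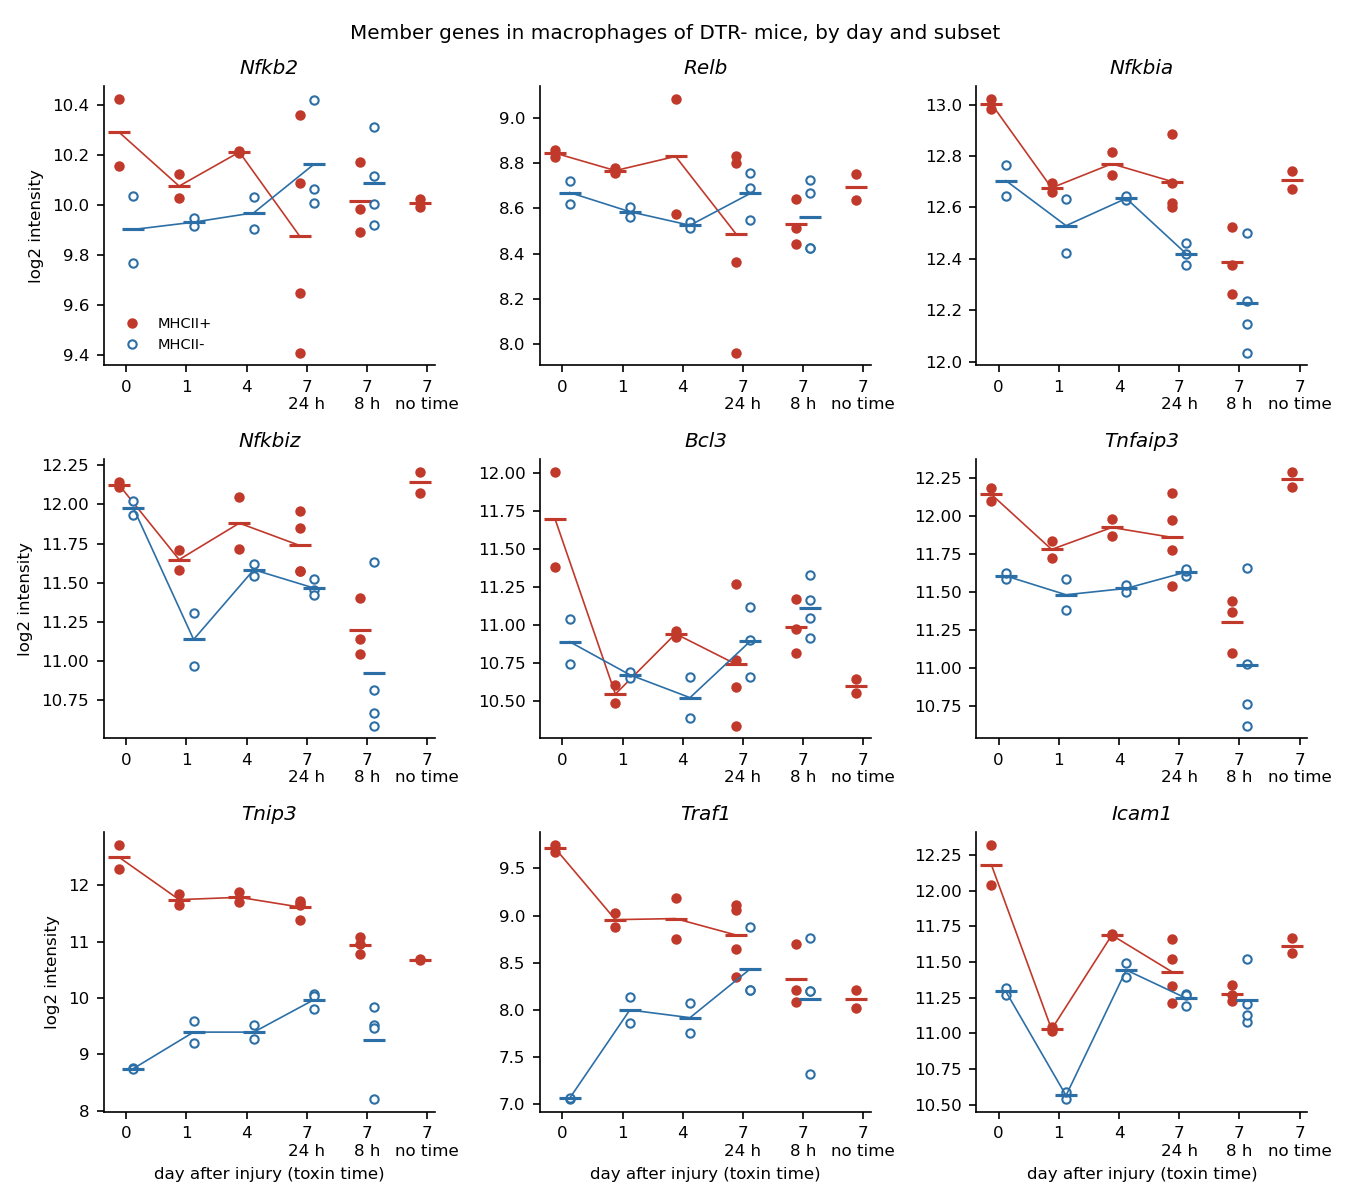
Log2 intensity (y axis) of the 9 genes in DTR- arrays by day after cardiotoxin (x axis), with each point an array and each bar a group mean, in MHCII+ and MHCII- cells. The day 0 MHCII+ arrays are the highest for Traf1, Tnip3 and Icam1, and Tnip3 stays apart between the subsets at every day.

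Tnip3 separated the MHCII subsets in every array measured. All 24 MHCII+ arrays, at log2 10.68 to 12.72, lay above all 21 MHCII- arrays, at 8.21 to 10.07. This held in both genotypes, at every day and in every DT set. Of the 11074 genes tested, 22 (0.199%) had all MHCII+ arrays above all MHCII- arrays. None of the other 8 measured genes did. Traf1, an adaptor of TNF receptor family signalling, came nearest the same order without reaching it: 8 of its MHCII+ arrays lay above all MHCII- arrays, and 9 of its MHCII- arrays lay below all MHCII+ arrays. The MHCII+ arrays of Traf1 ran from 8.02 to 9.75 and the MHCII- arrays from 7.06 to 8.88.

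In order of group means, Tnip3 was highest in day 0 MHCII+ cells (12.50) and next in the day 7 DTR+ MHCII+ cells without a DT time (12.27), and the arrays of these neighbours overlapped. The latter did not overlap the next group. The following MHCII+ groups ran from 11.83 to 11.52 and each overlapped the next. The 8 h DTR- MHCII+ group (10.94) and the day 7 DTR- MHCII+ group without a DT time (10.69) did not overlap their next lower neighbours. The MHCII- groups followed from 9.97 to 8.75, the lowest being day 0.

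In uninjured muscle the contrast between subsets was at its widest for both genes. Tnip3 was 12.29 and 12.72 in the day 0 MHCII+ arrays and 8.76 and 8.74 in the MHCII- arrays. Traf1 was 9.68 and 9.75 in MHCII+ and 7.06 and 7.07 in MHCII-, where both arrays lie below the level of the filter. Neither gene's groups overlapped, as was true of 64.6% of tested genes in this comparison of 2 with 2 arrays. The difference in Tnip3 was log2 3.75 ± 0.28 (SE), or 13.5-fold (limma, adjusted p = 3.05e-12). The measured difference in Traf1 was 2.65 ± 0.28 (limma, adjusted p = 6.44e-09). Its MHCII- arrays were at the level of Foxp3 (median 7.09), a gene that did not pass the filter in these macrophages. The floor of the Traf1 probe set is not known, so the size may be a lower bound and is not firmly measured. The same holds for every Traf1 difference below that is taken from the day 0 MHCII- arrays.

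Icam1, the adhesion molecule to which leukocyte integrins bind, was 12.04 and 12.32 in day 0 MHCII+ cells and 11.32 and 11.27 in MHCII- cells. The difference was 0.89 ± 0.19, or 1.85-fold (limma, adjusted p = 0.000714). Bcl3, an atypical IκB protein that works in the nucleus with p50 and p52, was 11.38 and 12.01 against 10.74 and 11.04. It was higher by 0.81 ± 0.23 (limma, adjusted p = 0.0108). Tnfaip3 was 12.10 and 12.19 against 11.59 and 11.62, a difference of 0.54 ± 0.19 (limma, adjusted p = 0.0471). The day 0 groups did not overlap for these 3 genes, nor for any of the other 6 members. The call of Tnfaip3 was lost without any 1 of the 4 arrays, and that of Bcl3 without 2 of them in turn.

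In all, 5 of the 9 genes were higher in MHCII+ cells at day 0 and none was lower, where 19.0% of all tested genes passed and 8.44% were higher. All 9 differences were positive, with a median of 0.54 against -0.02 over all tested genes. The neutrophil genes moved the other way: 9 of 9 tested were lower in MHCII+ cells, as with S100a8 (-3.39). The mean of the list was 6.43 in both MHCII+ arrays. Of the eosinophil genes, Ccr3 was also lower (-1.71) and Siglecf (0.22) did not pass. Without the MHCII- array of highest neutrophil level, Traf1 (2.64), Tnip3 (3.76) and Icam1 (0.91) kept their calls. Bcl3 (0.66, limma adjusted p = 0.124) and Tnfaip3 (0.52, limma adjusted p = 0.164) did not. The dendritic cell mean was 8.69 to 8.90 in MHCII+ and 7.37 to 7.48 in MHCII- cells, with 4 of 5 tested genes higher, among them Ccr7 (3.81) and Flt3 (1.96). Zbtb46, a transcription factor of conventional dendritic cells, was at 0.26 and did not pass (limma, adjusted p = 0.260), and 2 of the 7 genes lay below the filter in all groups. The part of these cells in the result was not tested.

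Other genes of the pathway differed in both directions at day 0, where 19.0% of tested genes passed, 8.44% higher and 10.6% lower. Rela, which encodes the main activating subunit p65, was higher in MHCII+ cells by 0.48 ± 0.11 (limma, adjusted p = 0.00259), and Rel (c-Rel) by 0.50 ± 0.22 without passing (limma, adjusted p = 0.115). Of the 6 other subunit and inhibitor genes 2 were higher, the second being Nfkbib (0.52), and none was lower. Of 18 kinases and adaptors tested, 4 were higher and 2 lower. Map3k14, which encodes NIK, the kinase of the p100 arm, was higher by 0.82, and Ikbkg, which encodes the scaffold NEMO, was lower by -0.50. Among 12 other negative regulators, 2 were higher, namely Birc3 (0.61), a ubiquitin ligase that restrains NIK, and Zc3h12a (0.92), the ribonuclease Regnase-1, and 2 were lower. Of 16 other targets 1 passed, Bcl2l1, which was lower (-0.73).

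**Figure D2:**
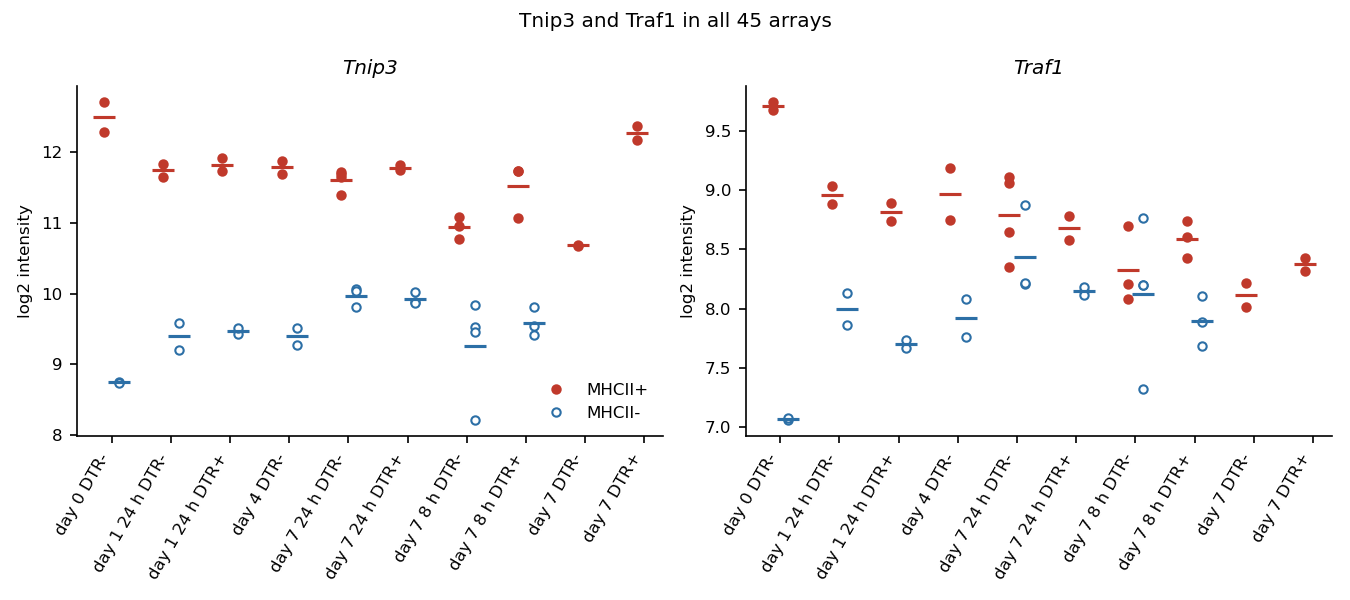
Log2 intensity (y axis) of Tnip3 and Traf1 in all 45 arrays by day, DT set and genotype (x axis), with filled points for MHCII+ arrays, open points for MHCII- arrays and bars for group means. Every MHCII+ array of Tnip3 is at 10.68 or above and every MHCII- array at 10.07 or below, while the subsets of Traf1 meet at day 7.

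After injury Tnip3 remained higher in MHCII+ cells in all 7 further comparisons of the subsets. In DTR- mice the difference was 2.35 ± 0.28 at day 1, 2.39 ± 0.28 at day 4, 1.64 ± 0.21 at day 7 of the 24 h set and 1.68 ± 0.21 of the 8 h set, with limma adjusted p-values from 2.72e-07 to 2.78e-06. In DTR+ mice, compared after the data were seen, it was 2.35 ± 0.28 at day 1, 1.86 ± 0.25 in the 24 h set and 1.93 ± 0.23 in the 8 h set (limma, adjusted p from 2.97e-07 to 1.24e-05). The change of this difference from day 0 to day 1 was tested and is given with the time course.

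Traf1 was the only other member to pass in these 7 comparisons. It was higher in MHCII+ cells by 1.05 ± 0.28 at day 4 in DTR- mice (limma, adjusted p = 0.0337) and by 1.11 ± 0.28 at day 1 in DTR+ mice (limma, adjusted p = 0.0172). Both calls were lost when any 1 of the 4 arrays was left out. At day 1 in DTR- mice the difference was 0.96 and did not pass (limma, adjusted p = 0.0572). So 1, 2, 1 and 1 of the 9 genes passed in DTR- mice at day 1, day 4, 24 h and 8 h, where 2.45%, 2.12%, 5.23% and 2.21% of tested genes did. In DTR+ mice it was 2, 1 and 1 genes at day 1, 24 h and 8 h, against 2.26%, 1.37% and 7.98%. In the 8 h DTR- arrays Tnfaip3 was not called, with means of 11.30 in MHCII+ and 11.01 in MHCII- cells. A fit with a block for replicate number called it, higher by 0.50 ± 0.11 in MHCII+ cells (limma, adjusted p = 0.00884). Replicate 5 is present in MHCII- cells only, so the block takes that array out of the difference. The labels do not say that equal numbers mark a shared animal.

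The next question was how the genes moved over the course of injury. In MHCII+ cells 5 of the 9 were lower at day 1 than in uninjured muscle, and the other 4 did not pass. Bcl3 fell from 11.38 and 12.01 to 10.48 and 10.60, a change of -1.15 ± 0.23 (limma, adjusted p = 0.000198). Icam1 fell from 12.04 and 12.32 to 11.04 and 11.01, also by 1.15 ± 0.19, or 2.22-fold (limma, adjusted p = 1.54e-05). Both calls held when any 1 array was left out. The groups did not overlap for any of the 9 members, nor for 75.4% of tested genes.

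Nfkbia, at 12.98 and 13.02 on day 0, was 12.69 and 12.66 on day 1, a change of -0.33 ± 0.12 (limma, adjusted p = 0.0264). Traf1 changed by -0.76 ± 0.28 (limma, adjusted p = 0.0319) and Tnip3 by -0.75 ± 0.28 (limma, adjusted p = 0.0338). With 1 of the 4 arrays left out, 2 or 3 of the 9 genes passed. All 9 differences were negative, with a median of -0.48 against -0.01 over all genes. The 5 genes that fell stand against 35.6% of tested genes that passed in this comparison, 17.0% with a fall.

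Immediate-early and heat-shock genes, which respond quickly to stress and to the handling of cells, moved in the same direction. Of 14 such genes, 7 fell from day 0 to day 1 in MHCII+ cells and none rose, with a median of -0.52, beside the 17.0% of tested genes that fell. Egr1 changed by -0.79 and Hspa1a by -1.08. All 5 tested dendritic cell genes fell, with a median of -0.99, and 3 of 5 monocyte genes rose, Vcan by 4.84. The parts of handling and of cell makeup in the result were not tested. The day 0 mice were also older than the day 1 mice by their labels. Their cells had no stated SiglecF gate, and only the day 1 titles gave a DT time. Age, gate, toxin and injury therefore cannot be told apart here.

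The rest of the pathway changed in both directions between day 0 and day 1 in MHCII+ cells, as did tested genes at large, of which 18.6% rose and 17.0% fell. Rela fell by 0.74 ± 0.11 (limma, adjusted p = 7.51e-06) and Nfkbib by 0.60, while Rel was at -0.24 and did not pass (limma, adjusted p = 0.401). Among 18 kinases and adaptors, 3 rose and 3 fell, a share near that of all genes. Ikbke, which encodes the IKK-related kinase IKKε, rose by 1.83, Ikbkg by 0.72, and Map3k14 fell by 0.68. Among 12 other negative regulators, 3 rose and 3 fell, with Birc3 at -1.21 and Zc3h12a at -1.11. Among 16 other targets, 4 rose and 5 fell. Irf1, an interferon-responsive transcription factor, fell by 1.92 and Cd83, a surface marker of activated antigen-presenting cells, by 1.21. Tnfsf13b, which encodes the cytokine BAFF, was the 1 ligand of 5 that passed, at -2.19, and its day 1 mean (7.09) lay below the filter.

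In MHCII- cells the same interval gave a mixed result. Traf1 rose from 7.06 and 7.07 to 8.13 and 7.86, a change of 0.94 ± 0.28 (limma, adjusted p = 0.0109). Nfkbiz, an atypical nuclear IκB protein that acts as a coactivator for secondary response genes, fell from 12.02 and 11.93 to 11.31 and 10.97, by 0.84 ± 0.28 (limma, adjusted p = 0.0232). Icam1 fell from 11.32 and 11.27 to 10.54 and 10.59, by 0.73 ± 0.19 (limma, adjusted p = 0.00361). The 3 genes stand against 25.6% of tested genes that passed. The groups did not overlap for these 3, for 8 of the 9 members in all, and for 73.0% of tested genes. Rela fell by 0.31 (limma, adjusted p = 0.0395) and Rel (-0.04) did not pass (limma, adjusted p = 0.932). Without the day 0 array of high neutrophil genes, Icam1 passed (-0.70, limma adjusted p = 0.0361), and Nfkbiz (-0.80, limma adjusted p = 0.124) and Traf1 (0.93, limma adjusted p = 0.0649) did not. Markers of other cells and of the sort moved over the same days. All 5 monocyte genes rose, Vcan by 4.57 and Chil3 by 3.23, and the mean of the list was 9.38 and 9.08 on day 0 and 12.07 and 11.97 on day 1. Of 5 MHC class II genes 4 fell, with H2-Aa at -3.49. Of 9 neutrophil genes 8 fell, and of 14 immediate-early and heat-shock genes 7 fell and 1 rose. Of the eosinophil genes, Ccr3 fell (-1.15) and Siglecf (-0.11) did not pass. The part of these in the result was not tested. Age, gate and DT title differed between the days as in MHCII+ cells.

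The change from day 0 to day 1 differed between the subsets for Traf1 and Tnip3, where 4.66% of tested genes passed. The change in MHCII+ cells less that in MHCII- cells was -1.69 ± 0.39 for Traf1 (limma, adjusted p = 0.00624) and -1.40 ± 0.39 for Tnip3 (limma, adjusted p = 0.0321). Traf1 fell in MHCII+ cells and rose in MHCII- cells from arrays below the filter, so the size of its difference is not firmly measured. Without the neutrophil-high array the difference was -1.68 for Traf1 (limma, adjusted p = 0.0240) and -1.41 for Tnip3 (limma, adjusted p = 0.0819). Between day 1 and day 7, where 1.72% of tested genes passed, the 2 differences were -0.60 and -0.71 and did not pass (limma, adjusted p = 0.552 and 0.447).

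Icam1 was higher again at day 4 in both subsets. In MHCII+ cells it rose from 11.04 and 11.01 to 11.69 and 11.68, by 0.66 ± 0.19 (limma, adjusted p = 0.0136). In MHCII- cells it rose from 10.54 and 10.59 to 11.50 and 11.39, by 0.88 ± 0.19 (limma, adjusted p = 0.000578). The days did not overlap in either subset, as for 60.5% of tested genes in MHCII+ and 75.3% in MHCII- cells. The rise in MHCII- cells passed without any 1 array, and that in MHCII+ cells was lost without 3 of the 4 arrays. Icam1 was the only one of the 9 genes to pass, where 15.4% of tested genes did in MHCII+ and 24.2% in MHCII- cells. Birc3, a fellow target and brake, rose by 0.71 and 0.50, and Cd83 by 0.97 and 1.57. Rela (0.22 and 0.10) and Rel (0.38 and 0.26) did not pass. The monocyte genes moved the other way over these days. In MHCII+ cells 2 of 5 fell, with Vcan at -3.46 and Chil3 at -1.64. In MHCII- cells 3 of 5 fell, with Chil3 at -2.86, Vcan at -2.49 and F10 at -1.88. All 5 MHC class II genes rose in MHCII- cells, H2-Aa by 2.72, and 1 of 5, Ciita (1.07), in MHCII+ cells. The part of these in the rise of Icam1 was not tested. The day 1 titles gave a 24 h DT time and the day 4 titles none, so toxin and day cannot be told apart.

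From day 4 to day 7 no member passed in either subset with limma, where 2.46% of tested genes did in MHCII+ and 1.17% in MHCII- cells. At an unadjusted p under 0.05 the counts were 0 and 3 of 9 members, beside 1702 and 1362 of the 11074 tested genes. Day 7 here is the 24 h DTR- set, which unlike day 4 had a DT time in its titles and no stated SiglecF gate. With the 8 h set, from mice aged 12 weeks, in its place, 3 members passed in MHCII+ cells and 1 in MHCII- cells. The shares of tested genes given above are for the 24 h set and do not apply to these counts. Without such a share the counts are not read as a result about the members.

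At day 7 the MHCII+ cells were still below day 0 in 5 of the 9 genes, where 20.2% of tested genes passed and 9.91% were lower. Bcl3 was lower by 0.95 ± 0.20, Traf1 by 0.92 ± 0.24, Tnip3 by 0.88 ± 0.24, Icam1 by 0.75 ± 0.16 and Nfkbia by 0.30 ± 0.10 (differences -0.95, -0.92, -0.88, -0.75 and -0.30). The Tnip3 arrays of day 7, at 11.40 to 11.73, lay below both day 0 arrays. None of the 5 calls remained without replicate 2 of the day 0 MHCII+ group. Of 5 dendritic cell genes 4 were also lower, with a median of -1.21. So were 6 of 14 immediate-early and heat-shock genes, and the part of both lists was not tested. The day 7 mice were aged 8 weeks with a DT time in their titles, the day 0 mice 10 weeks with none. Age, toxin and injury cannot be told apart here.

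In MHCII- cells Traf1 was higher at day 7 than at day 0 by 1.37 ± 0.25 (limma, adjusted p = 0.000438), and Tnip3 by 1.22 ± 0.25 (limma, adjusted p = 0.00171), where 7.51% of tested genes passed. The Tnip3 arrays were 10.07, 9.81 and 10.04 on day 7 against 8.76 and 8.74. The Tnip3 call was lost with the 8 h set as day 7. Rela (0.09) and Rel (0.12) did not pass in that comparison. The sort marker moved with the 2 genes: all 5 MHC class II genes were higher at day 7 in MHCII- cells, H2-Aa by 1.09, H2-Eb1 by 1.08, Ciita by 0.97, H2-Ab1 by 0.91 and Cd74 by 0.41. Ccr3, an eosinophil gene, was lower (-0.87), as were 8 of 9 neutrophil genes. Without the neutrophil-high day 0 array Traf1 (1.36, limma adjusted p = 0.00869) and Tnip3 (1.23, limma adjusted p = 0.0213) kept their calls. The part of the MHC class II shift was not tested. Age and DT title differed between the days as in MHCII+ cells.

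**Figure D3:**
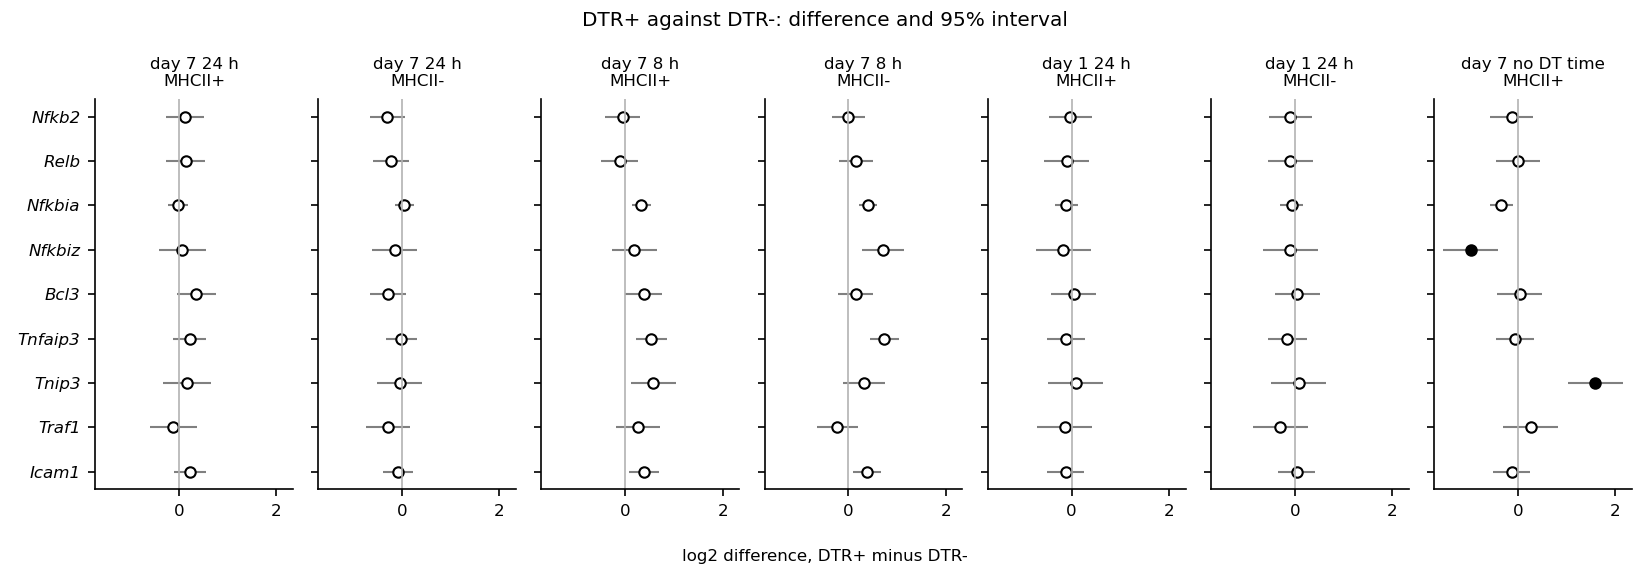
Difference DTR+ minus DTR- (x axis, log2) of the 9 genes (y axis) in 7 genotype comparisons, as points with 95% intervals from limma, filled where the adjusted p is under 0.05. Only Tnip3 (1.59) and Nfkbiz (-0.97) in the day 7 set without a DT time are filled.

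The genotype comparisons ask what changes in macrophages when regulatory T cells are removed. In 6 of 7 comparisons no member passed. With array quality weights, which give less weight to arrays that stray from their group, 6 of 9 passed at 8 h in MHCII+ cells and 4 in MHCII- cells. Of all tested genes 19% and 22.5% then passed there. In the 24 h set, 0.0542% of tested genes passed in MHCII+ and 0.00903% in MHCII- cells. No member had an unadjusted p under 0.05, where 716 and 717 of the 11074 tested genes did. Member differences ran from -0.11 to 0.36 in MHCII+ cells and from -0.30 to 0.05 in MHCII- cells. At day 1 no gene of any kind passed (0% in both subsets). Again no member had an unadjusted p under 0.05, where 25 and 154 of the tested genes did. The differences ran from -0.17 to 0.08 and from -0.30 to 0.08.

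At 8 h Tnfaip3 and Nfkbia were at a higher mean level in DTR+ than in DTR- cells of both subsets, and Nfkbiz mainly in MHCII- cells, short of the threshold. In MHCII- cells, where 0.0181% of tested genes passed, Tnfaip3 was 11.67, 11.83 and 11.76 in DTR+ arrays and 10.62, 10.76, 11.02 and 11.66 in DTR- arrays. The highest DTR- array, replicate 5 (11.658), all but meets the lowest DTR+ array (11.666). The difference was 0.74 ± 0.15 (limma, adjusted p = 0.0671), rank 3 by p among the 11074 genes. Nfkbia was 12.74, 12.65 and 12.49 against 12.04, 12.24, 12.15 and 12.50, a difference of 0.40 ± 0.09 (limma, adjusted p = 0.0929). Nfkbiz was 11.70, 11.74 and 11.49 against 10.59, 10.82, 10.67 and 11.63, a difference of 0.72 ± 0.21 (limma, adjusted p = 0.371).

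For Nfkbia and Nfkbiz the groups overlapped through DTR- replicate 5 alone. Without that array all 3 passed, with differences of 0.95 for Tnfaip3, 0.49 for Nfkbia and 0.95 for Nfkbiz. The array was singled out by its values of these same genes, so these calls are not separate support. The share of 0.0181% is of the main fit and does not apply to them. Of the 9 members 4 had an unadjusted p under 0.05, as did 486 of the 11074 tested genes. For the members 7 differences were positive, with a median of 0.33 against 0.00 over all genes. The subunits Nfkb2 (-0.00) and Relb (0.15) did not move with them. Rel was at 0.52 ± 0.17 (limma, adjusted p = 0.531) and Rela at 0.13 (limma, adjusted p = 0.998). None of the 14 immediate-early and heat-shock genes passed, and 13 had a positive difference, with a median of 0.29. Their part in the result was not tested.

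In MHCII+ cells of the 8 h set, where 0.488% of tested genes passed, Tnfaip3 was 11.65, 12.00 and 11.85 in DTR+ arrays and 11.10, 11.44 and 11.37 in DTR- arrays. Nfkbia was 12.56, 12.90 and 12.70 against 12.27, 12.52 and 12.38. Neither gene's groups overlapped, as for 29.0% of tested genes. The differences were 0.53 ± 0.16 (limma, adjusted p = 0.122) and 0.33 ± 0.09 (limma, adjusted p = 0.110). Nfkbiz was 10.70, 11.89 and 11.54 against 11.14, 11.40 and 11.05, so that its DTR+ arrays spanned all the DTR- arrays, and differed by 0.18 (limma, adjusted p = 0.674). Tnip3 had the widest difference of the members, 0.58 ± 0.23 (limma, adjusted p = 0.185). Its arrays were 11.07, 11.74 and 11.74 against 10.78, 11.09 and 10.96, and the groups overlapped. Of the 9 members 5 had an unadjusted p under 0.05, as did 2044 of the 11074 tested genes. No member passed, and the median difference was 0.33 against -0.04.

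Outside the members, 4 pathway genes passed there, where 0.488% of tested genes did. Il1a and Il1b, which encode interleukin-1α and interleukin-1β, were higher in DTR+ cells by 1.98 ± 0.26 (limma, adjusted p = 8.35e-05) and 0.67 ± 0.16 (limma, adjusted p = 0.0383). Rel was higher by 0.74 ± 0.18 (limma, adjusted p = 0.0499) and Birc3 by 0.46 ± 0.10 (limma, adjusted p = 0.0200), while Rela (0.30) did not pass (limma, adjusted p = 0.138). The T cell mean in the DTR+ arrays was 7.28 to 9.74 and in the DTR- arrays 7.21 to 7.26. The 3 arrays of lowest weight, among them the array of high T cell genes, were also left out, a choice made after seeing the data. Nfkbia (0.41, limma adjusted p = 0.0463) and Icam1 (0.63, limma adjusted p = 0.0172) then passed. The share of 0.488% is of the main fit and does not apply to these 2 calls, which are not read as a result about the members.

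The difference between genotype effects was tested in 4 comparisons, between subsets at 24 h and at 8 h and between 24 h and 8 h in each subset, all with limma. No gene passed in any of them (0% of tested genes). At an unadjusted p under 0.05 the members counted 1, 0, 1 and 4 of 9. Of the 11074 tested genes the counts were 1012, 856, 1319 and 538. The 4 members were in MHCII- cells at 24 h against 8 h, where all 9 differences were negative. Tnfaip3 was at -0.76 ± 0.22 and Nfkbiz at -0.86 ± 0.31 (limma, adjusted p = 0.841 for both).

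In the day 7 MHCII+ set without a DT time, Tnip3 was higher and Nfkbiz lower in DTR+ mice, where 11.5% of tested genes passed. Tnip3 was 12.38 and 12.17 in DTR+ arrays and 10.68 and 10.69 in DTR- arrays. The groups were wide apart, by 1.59 ± 0.28, or 3.01-fold (limma, adjusted p = 9.15e-05). Nfkbiz was 11.13 and 11.21 against 12.21 and 12.07, a difference of -0.97 ± 0.28 (limma, adjusted p = 0.0166), and this call was lost without any 1 of the 4 arrays. Nfkbia, at 12.37 and 12.37 against 12.74 and 12.67, differed by -0.34 ± 0.12 (limma, adjusted p = 0.0507).

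These groups also differed in markers of other cells. The monocyte mean was 11.10 and 10.69 in DTR+ arrays and 8.36 and 8.48 in DTR- arrays, with 3 of 5 genes higher, Chil3 by 6.74. The T cell mean was 6.79 and 6.71 against 7.43 and 7.27. Within that list Cd28 (-3.55) and Cd2 (-0.81) were lower, while Cd3e (0.01) and Cd5 (-0.05) did not pass. Of 8 skeletal muscle genes 6 were lower, with a median of -0.77. The dendritic cell mean was 7.82 to 7.96 against 7.51 to 7.54, with Clec9a higher by 3.19 and Cd209a lower by -1.68. The part of these cells in the result was not tested. Against the 11.5% of tested genes that passed, 4 of 16 other targets were higher and 1 lower, with Src at 1.17, Cd40 at 0.83, Sod2, a mitochondrial superoxide dismutase, at 0.67 and Ebi3 at -0.77. Of 15 receptors none was higher and 5 were lower, with Tlr7 at -1.45 and Tlr2 at -0.91. Rel (0.13) and Rela (-0.17) did not pass.

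The pairs of members differed in how closely they moved together. Pearson correlations over the 18 group means ran from 0.12, between Tnfaip3 and Bcl3, to 0.86, between Traf1 and Tnip3. The values depend on the day 7 groups. Over the 8 groups of days 0, 1 and 4 they ran from 0.39, between Nfkbiz and Traf1, to 0.97, between Tnfaip3 and Nfkb2, and Tnfaip3 and Bcl3 were at 0.73. Over all 18 groups Tnfaip3 and Nfkb2 were at 0.18, Nfkbia and Nfkbiz were at 0.85 and Nfkb2 and Relb at 0.72. Among deviations of the 45 arrays from their group means, Nfkb2 and Relb were at 0.83, Nfkbiz and Icam1 at 0.85, Nfkbia and Nfkbiz at 0.69, Traf1 and Tnip3 at 0.57, and Nfkbia and Traf1 at -0.19. These points share arrays, array quality and cell makeup, so the values are descriptions.

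**Figure D4:**
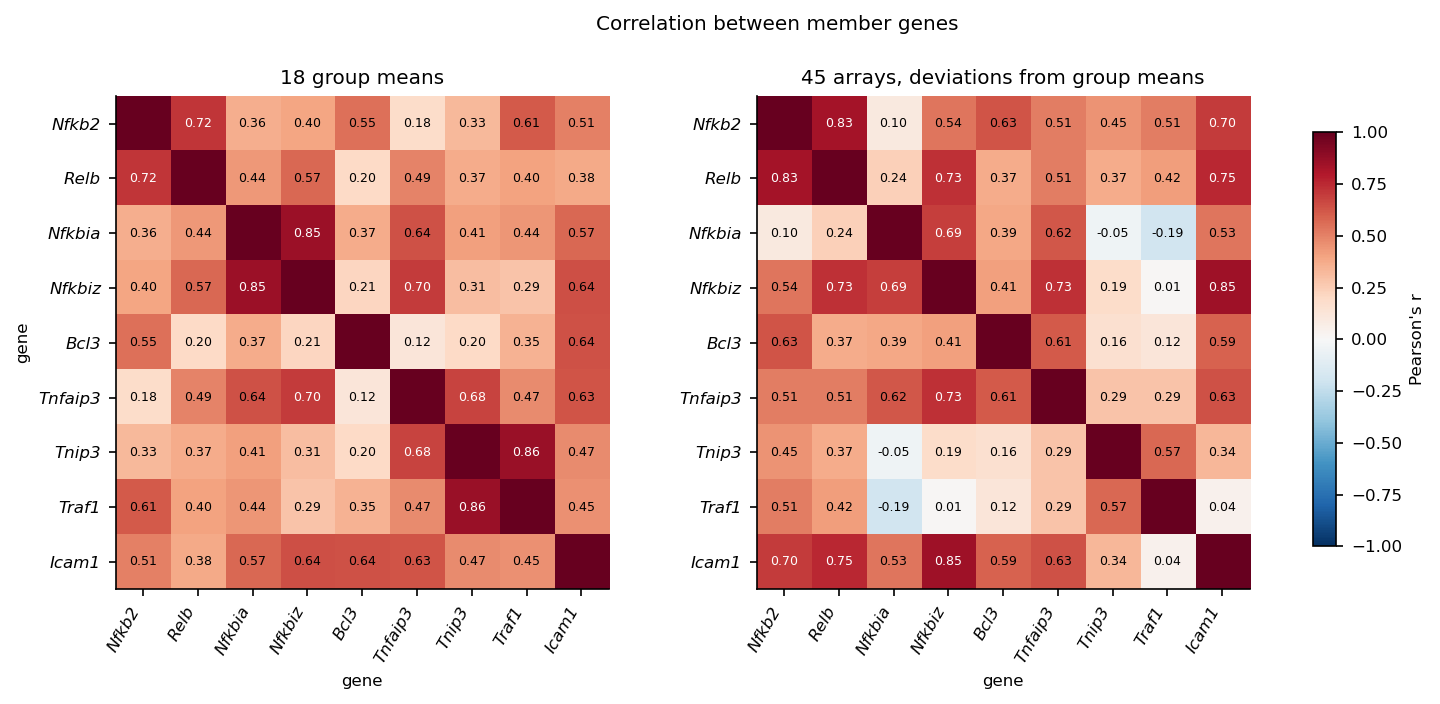
Pearson's r between each pair of the 9 genes (both axes list genes), over the 18 group means on the left and over the deviations of the 45 arrays from their group means on the right, with the colour scale from -1 to 1. Traf1 and Tnip3 (0.86) pair over groups, and Nfkb2 and Relb (0.83) pair within groups.

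The genes most like each member over the 18 group means fell into different company. For Tnip3 they were Klrb1b, Cd226 and Klrk1 (each r = 0.96). For Traf1 they were Foxp4 (0.91), Ccr7 (0.90) and Nectin1 (0.89), of which Ccr7 is a marker of migrating dendritic cells. Icam1 was most like Zfp385a (0.93), Birc3 (0.93) and Zc3h12a (0.91). Nfkbia was most like Ppp1r15a (0.91), Tnfsf9 (0.85) and Slc41a1 (0.83), and Nfkbiz was most like Nfkbid, Ankrd44 and Tm6sf1 (each 0.86). Bcl3 was most like Prr14 (0.91), Zbtb42 (0.88) and Sbk1 (0.87), and Tnfaip3 most like Mapkbp1 (0.87), Eml6 (0.86) and Gm614 (0.85). The subunit genes had looser matches, for Relb Nrros (0.83), Eml3 (0.80) and Dusp1 (0.76), and for Nfkb2 Tspan9 (0.75), Cyp2s1 (0.73) and Marveld1 (0.73).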

How the data were processed

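RNA from 45 sorted macrophage samples was measured on the Mouse Gene 1.0 ST microarray of Affymetrix. The authors, as the submitters' processing notes state, used RMA in Affymetrix Power Tools on the scans and deposited normalized linear intensity values per probe set. RMA usually scales arrays to a common distribution, so a shift shared by all genes could be hidden; array medians were 175 to 204 in the deposited values. The genome build is not given in the sources used here.

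Values were taken to log2. Each gene was represented by its single-symbol probe set of highest mean (19752 genes from 24922 probe sets), and genes with a group mean of at least log2 7.57, the median of all values, were tested (11074). Groups come from sample titles, since the labels' entry for surface markers contradicts them. A model of 18 group means was fitted with limma 3.58.1 in R 4.3.3 with an intensity trend, on 27 residual degrees of freedom, and p-values were adjusted by Benjamini-Hochberg within each of 29 comparisons (25 planned, 4 added after seeing the data). A call means an adjusted p under 0.05. The fit was tested on simulated data.

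The members, gene lists and tests were chosen with earlier results of these data known. Named genes are the 9 measured members, the 3 genes most like each over group means, up to 4 called genes of lowest p per pathway list and comparison, and Rel and Rela; marker genes of other cells were named for their size of change. Replicate numbers were checked as pairs by the correlation of deviations from group means. In the 8 h DTR- subset comparison all 3 pairs correlated (0.53, 0.48 and 0.58). No other comparison with 3 pairs met the criterion of r over 0.1 in every pair. Same-numbered arrays of different genotype also correlated, as number 5 at 8 h in MHCII- cells (0.69). The check therefore does not show that equal numbers mark a shared animal. The alternatives were quantile normalization, no filter, no trend, the mean of probe sets, array quality weights, only the arrays compared, a replicate block, the 8 h set as day 7, leaving out each array, and leaving out the 3 arrays of lowest weight. The 2 to 4 arrays a group limit the precision.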

Additional observations from a re-analysis of the deposited data

Results flagged for a closer look

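The change from day 0 to day 1 differed between MHCII+ and MHCII- cells for 2 members, by the limma test of the difference itself. It was -1.69 for Traf1 (adjusted p = 0.00624) and -1.40 for Tnip3 (adjusted p = 0.0321), as the change in MHCII+ cells less that in MHCII- cells. With each of the 8 arrays left out in turn, the call of Traf1 held in 8 of 8 fits and that of Tnip3 in 2 of 8. The mean of the neutrophil genes was 10.36 and 7.40 in the day 0 MHCII- arrays and 6.43 in both MHCII+ arrays. Without the day 0 MHCII- array at 10.36 the difference was -1.68 for Traf1 (adjusted p = 0.0240) and -1.41 for Tnip3 (adjusted p = 0.0819). The day 0 MHCII- arrays of Traf1, at 7.06 and 7.07, lie below the filter of 7.57, so the size of its difference is not firmly measured.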

How the results depend on the processing

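Of 35 called member values, 17 kept their call under every alternative run, 17 lost it without at least 1 array and 5 under at least 1 other alternative; no called value changed sign. Counts of members called that moved were as follows. Calls over all genes also moved: with array quality weights the 8 h genotype shares of 0.488% (MHCII+) and 0.0181% (MHCII-) became 19% and 22.5%. The other counts stand without such a share and are not read as results about the members. With array quality weights, the MHCII+ against MHCII- counts became 4 at day 1, 2 at 24 h and 4 at 8 h in DTR- mice and 5 at day 1 and 3 at 8 h in DTR+ mice. In MHCII- cells they became 2 for day 4 against 1, 4 for day 7 against 4 and 4 for day 7 against 0. The genotype counts at 8 h became 6 in MHCII+ (of 19% of all genes) and 4 in MHCII- cells (of 22.5%), and the 24 h minus 8 h difference in MHCII- cells 3. With only the arrays compared in the fit, the day 1 subset counts became 5 in DTR- and 5 in DTR+ mice, and day 4 against 1 became 2 in each subset. With no filter the day 4 subset count was 1. With quantile normalization the 8 h DTR+ subset count was 2. With the 8 h set as day 7, the counts were 3 (MHCII+) and 1 (MHCII-) against day 4, and 4 against day 0 in MHCII- cells. With the 3 arrays of lowest weight left out, chosen after seeing the data, the counts were 3 for the day 1 subsets in DTR- mice, 2 for 8 h genotype in MHCII+ and 3 in MHCII- cells. Leaving out 1 array at a time gave 3 to 4 for the day 0 subsets, 1 for day 4, 1 to 2 for 24 h and for 8 h, 2 to 3 for day 1 against 0 in MHCII+ cells and 1 to 2 in MHCII- cells, 0 to 1 for day 4 against 1 and 0 to 5 for day 7 against 0 in MHCII+ cells, 0 to 3 for 8 h genotype in MHCII- cells, 1 for the set without a DT time, 0 to 1 for 24 h minus 8 h in MHCII- cells, 1 to 3 for the day 1 minus day 0 difference, 1 for day 1 and 1 to 2 for 8 h in DTR+ subsets. The replicate block, fitted in 21 of 29 comparisons, gave 2 members called for the 24 h and for the 8 h DTR- subsets and ended the call of Tnfaip3 at day 0. With 2 arrays in most groups, a lone remaining array is assumed to vary like the other groups.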

Other observations

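Some receptors upstream of NF-κB also differed between subsets and days. At day 0, 4 of 15 receptors were lower in MHCII+ than in MHCII- cells and 1 was higher, where 10.6% and 8.44% of tested genes were. Tlr13, which senses bacterial ribosomal RNA, was lower by 1.19 ± 0.12 (difference -1.19, limma adjusted p = 1.64e-09), as were Tlr7 (-0.89) and Tlr4 (-1.10), the receptor for lipopolysaccharide. Tnfrsf13c, which encodes the BAFF receptor, was higher by 1.27. From day 1 to day 4, 5 of 15 receptors rose and 1 fell in MHCII+ cells, where 15.4% of tested genes passed, and 3 rose and 1 fell in MHCII- cells, where 24.2% did. Tlr7, Tlr3 and Tlr8, receptors for RNA in endosomes, rose in both subsets, by 0.96, 1.10 and 0.66 in MHCII+ cells and by 0.76, 1.63 and 1.06 in MHCII- cells. Tnfsf13b, the gene of the ligand BAFF, rose over the same days by 1.26 and 0.86, from day 1 means below the filter (7.09 and 7.06). In MHCII- cells Il1rap, a subunit of the interleukin-1 receptor, rose by 1.26 from day 0 to day 1 and fell by 1.15 from day 1 to day 4. Nfkbie, which encodes the inhibitor IκBε, rose by 1.06 and then fell by 0.85 in the same cells.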
